A study of Rattus norvegicus with 8 samples.

Results

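The genes described here are 10 apolipoproteins of rat liver: Apoa1, Apoa2, Apoa4, Apoa5, Apob, Apoc2, Apoc3, Apoe, Apoh and Apom. They were chosen by name, as the non-control probes whose gene symbol in the array annotation equals one of these symbols, and all 10 were found among 13977 named genes tested. The samples were livers of male Fisher 344 rats (an inbred strain), aged 18 weeks, with 1 single-colour Agilent array for each animal. Of the 8 rats, 4 had been given furan, a liver carcinogen of rodents, by stomach tube at 8 mg per kg body weight per day, 5 days a week over 90 days. The other 4 were controls, whose vehicle is not given in the sources used here. All were killed 24 hours after the last treatment, and no genetic modification is named for either group. The comparison asks how the liver's output of apolipoprotein RNA differed after furan.

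Apolipoproteins are the proteins that coat lipoprotein particles, the carriers of triglyceride and cholesterol in blood, and most of them are made by hepatocytes. Some give a particle its structure (Apob in VLDL and LDL, Apoa1 and Apoa2 in HDL), others act on the enzymes that digest or modify the particle (Apoa5, Apoc2 and Apoc3 on lipoprotein lipase, Apoa1 on the cholesterol esterifying enzyme LCAT), and Apoe is a ligand of the receptors that remove particles from blood. In rodents the liver also makes Apoa4, which in other mammals comes mainly from the intestine, and macrophages make Apoe.

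Each gene was read by 1 probe of 60 bases. Shown here, from the deposited array files, are the probe of the only member that rose, those of the members with the largest falls and that of the brightest member, since their signals carry the results. No base is marked in capitals, because no part of a probe was singled out.
Apoa1: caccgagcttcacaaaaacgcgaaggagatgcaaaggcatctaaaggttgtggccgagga
Apoa4: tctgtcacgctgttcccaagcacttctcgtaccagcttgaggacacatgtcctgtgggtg
Apom: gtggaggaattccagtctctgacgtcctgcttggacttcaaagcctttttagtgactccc
Apoe: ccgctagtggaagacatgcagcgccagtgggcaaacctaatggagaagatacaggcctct

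On the rn4 build named in the file headers, the array annotation places the Apoa4 probe at chr8:49233335-49233394 (plus strand), the Apom probe at chr20:3756178-3756237 (plus strand) and the Apoe probe at chr1:79003795-79003854 (minus strand). It lists the Apoa1 and Apoc3 probes as unmapped and assigns them through their transcripts. Whether a probe lies in a coding exon or an untranslated region was not determined here. No run of 20 bases of any of the 10 probes, on either strand, occurs in the array probe of a gene outside the members.

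A level is the log2 processed signal minus the log2 of the 75th percentile of the non-control spots of the same array, so that percentile is 0. The percentile was 1256 to 1596 intensity units on the furan arrays and 827 to 1057 on the control arrays. Of the non-control spots, 73.2% to 78.5% were well above background on the furan arrays and 70.9% to 74.8% on the control arrays. All 152 readings of the members' spots were well above background, none was marked as an outlier, and none held a saturated pixel. The precision is limited by 4 arrays in each group. Slide 1 carried furan 1 and 2 with control 1 and 2, and slide 2 carried furan 3 and 4 with control 3 and 4. On control 2 and furan 1, markers of bile duct cells were higher than on most other arrays of their group (values with the markers below). On control 1, the summed signal of endothelial markers was the lowest of all arrays.

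Relative to the 75th percentile, 1 of the 10 members, Apoa1, rose after furan and the other 9 fell (limma, adjusted p below 0.05), although with scaling on spike-in control probes 3 fell and the changes of Apoc2 and Apoe were 0.01 and 0.11. Among all 17683 tested features, 17.3% rose and 16.9% fell, 34.2% in all. The 4 furan values lay apart from the 4 control values for all 10 members, against 36.7% of all features (18.8% with furan higher and 18.0% with furan lower). On this scale the falls of 4 members were at least 2-fold: Apoa4, Apom, Apoa5 and Apoc3. Apoa5 and Apoc3 fell short of 2-fold with quantile normalization (-0.87 and -0.58) and with spike-in scaling (-0.40 each). The share of all features with a fall of this size was not counted. The median change of the members was -0.84 on the log2 scale and that of all features was -0.03. In whole liver RNA, fewer cells of a type and less RNA per cell cannot be told apart.

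**Figure D1:**
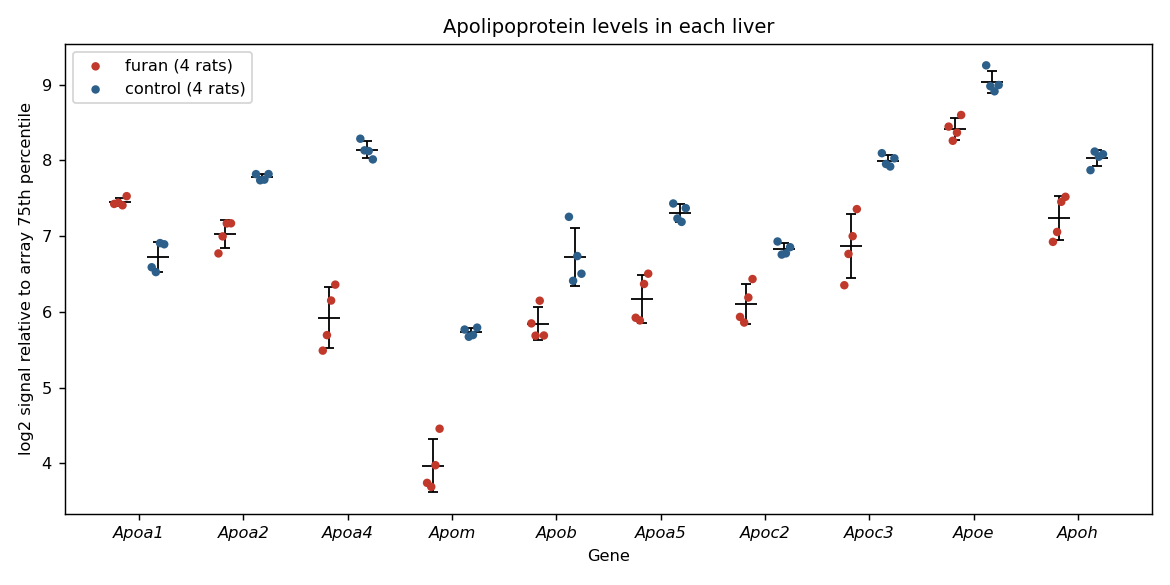
Level of each apolipoprotein (log2 signal relative to the 75th percentile of the array) in each liver, with furan in red at the left and control in blue at the right of each pair. Points are single rats, and black bars are the mean and SD of 4 rats. Apoa1 lies higher in furan livers and the other 9 genes lower, with no overlap between the groups for any gene (with spike-in scaling, Apoc2 and Apoe change sign).

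Among the proteins of HDL, Apoa1 rose while Apoa2, Apoa4 and Apom fell. Apoa1, the main structural protein of HDL and the activator of LCAT, had levels of 7.42, 7.44, 7.41 and 7.53 in furan livers 1 to 4, against 6.59, 6.52, 6.91 and 6.89 in control livers 1 to 4. The furan livers were close to one another and all above the controls, the nearest pair being 0.50 apart. The means were 7.45 ± 0.05 after furan and 6.73 ± 0.20 in controls (SD, n = 4 each), a 1.65-fold rise with a log2 change of 0.72 ± 0.12 (SE, adjusted p = 0.00339).

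Apoa4, a protein of chylomicrons and HDL, had levels of 5.49, 5.69, 6.15 and 6.36 in furan livers, against 8.28, 8.13, 8.12 and 8.01 in control livers. The gap between the highest furan and the lowest control value was 1.65 log2 units. This was the largest fall among the members, 4.64-fold, with a log2 change of -2.21 ± 0.19 (SE, adjusted p = 0.000359, 95% interval from -2.66 to -1.77).

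Apom, the HDL protein that carries the signalling lipid sphingosine 1-phosphate, had levels of 3.74, 3.69, 3.98 and 4.46 in furan livers, against 5.77, 5.67, 5.69 and 5.79 in control livers. The control livers differed from one another by no more than 0.12, and the furan livers were all well below them. The fall was 3.40-fold, with a log2 change of -1.76 ± 0.17 (SE, adjusted p = 0.000552). It was read by a single spot per array, while the other 9 members had 2 spots.

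Apoa2, an HDL protein, had levels of 6.77, 6.996, 7.17 and 7.17 in furan livers, against 7.82, 7.74, 7.74 and 7.82 in control livers. The groups were 0.57 apart at their nearest. The log2 change was -0.75 ± 0.12 (SE, adjusted p = 0.00255), but it was -0.20 and no longer called with quantile normalization (adjusted p = 0.165).

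Apob, the structural protein of VLDL and LDL, had levels of 5.85, 5.69, 6.15 and 5.69 in furan livers, against 7.25, 6.41, 6.74 and 6.50 in control livers. Control 1 was the highest of all, and the nearest furan and control values were 0.26 apart, the smallest gap among the members. The log2 change of -0.88 ± 0.20 (SE) had an adjusted p of 0.0114, the largest among the members, and it was -0.71 without control 1.

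The 3 members that act on lipoprotein lipase, the enzyme that digests triglyceride in plasma, all fell on the 75th percentile scale. This held whether they promote or restrain the enzyme. Apoa5, which promotes triglyceride clearance, had levels of 5.92, 5.89, 6.37 and 6.50 in furan livers, against 7.43, 7.23, 7.19 and 7.37 in control livers. Apoc3, which restrains lipase and the uptake of remnants, had levels of 6.35, 6.76, 6.998 and 7.36 in furan livers, against 8.09, 7.95, 7.92 and 8.03 in control livers. The control livers were tightly grouped for both genes, while the furan livers spread over 0.62 and 1.005 log2 units. On the 75th percentile scale the changes were alike in size, -1.13 ± 0.16 (SE) for Apoa5 with adjusted p = 0.00199 and -1.13 ± 0.20 (SE) for Apoc3 with adjusted p = 0.00421. With quantile normalization they were -0.87 for Apoa5 and -0.58 for Apoc3, and with spike-in scaling both were -0.40, with Apoc3 no longer called (adjusted p = 0.0640).

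Apoc2, the cofactor that lipoprotein lipase needs, had levels of 5.93, 5.86, 6.19 and 6.43 in furan livers, against 6.93, 6.76, 6.77 and 6.85 in control livers. The groups were 0.32 apart at their nearest. The log2 change of -0.72 ± 0.14 (SE, adjusted p = 0.00622) was smaller than those of Apoa5 and Apoc3, a difference that was not tested. With spike-in scaling the change of Apoc2 was 0.01 and not called in limma (adjusted p = 0.973).

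Apoe, the receptor ligand, had the second highest mean level of all tested features. Its levels were 8.44, 8.26, 8.37 and 8.60 in furan livers, against 9.25, 8.98, 8.91 and 8.99 in control livers. The groups were 0.31 apart at their nearest, with a log2 change of -0.62 ± 0.12 (SE, adjusted p = 0.00607), which was the smallest change among the members. Quantile normalization sets a value by rank alone, and with rank 2 or 3 on every array Apoe was given a change of 0 by its position. Before scaling, its signal was 494487 ± 16885 intensity units on the furan arrays and 502462 ± 7903 on the control arrays (SD, n = 4 each), and the unscaled signals of the groups overlapped, at 481324 to 519258 and at 491637 to 510365. This overlap was not particular to Apoe, since the unscaled signals of the groups also overlapped for Apoa2, Apob, Apoc2 and Apoh.

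Apoh (beta-2-glycoprotein I), a plasma protein that binds phospholipids, had levels of 6.92, 7.05, 7.45 and 7.52 in furan livers, against 7.87, 8.12, 8.05 and 8.08 in control livers. No furan value reached the controls, although the 2 spots on control 1 differed, at 7.44 and 8.30. Its log2 change was -0.79 ± 0.16 (SE, adjusted p = 0.00633), and -0.15 and not called with quantile normalization (adjusted p = 0.413).

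Several members are neighbours in the genome, and the neighbours did not all move one way. In the RefSeq gene table (assembly GRCr8), Apoa1, Apoc3, Apoa4 and Apoa5 follow each other on chromosome 8 with 0 protein-coding genes between them. Within this cluster Apoa1 rose by 0.72, while its neighbours Apoc3, Apoa4 and Apoa5 had changes of -1.13, -2.21 and -1.13. On chromosome 1, Apoc2, Apoc4, Apoc1 and Apoe follow each other in the same way. All genes of that cluster had lower levels, with changes of -0.72 for Apoc2, -1.14 for Apoc4, -1.09 for Apoc1 and -0.62 for Apoe, of which Apoc2 and Apoe change sign with spike-in scaling. Over the 8 arrays, the smallest root mean square difference between the centred profiles of 2 members was 0.11, for Apoa2 and Apoc2, and the largest was 1.496, for Apoa1 and Apoa4.

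The windows from 250 bases before to 50 bases after the start of Apoa4 and Apoa5, 2 neighbours that both fell, are shown from RefSeq (GRCr8) with matches to the searched motifs in capitals. For Apoa5, which has 2 listed starts, the first window is given.
Apoa4, chr8:55435529-55435828, plus strand: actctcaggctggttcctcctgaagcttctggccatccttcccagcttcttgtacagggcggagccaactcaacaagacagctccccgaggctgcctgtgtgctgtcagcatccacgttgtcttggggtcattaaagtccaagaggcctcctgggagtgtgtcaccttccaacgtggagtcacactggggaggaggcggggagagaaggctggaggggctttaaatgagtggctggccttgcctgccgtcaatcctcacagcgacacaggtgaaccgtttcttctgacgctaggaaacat
Apoa5, chr8:55457621-55457920, plus strand: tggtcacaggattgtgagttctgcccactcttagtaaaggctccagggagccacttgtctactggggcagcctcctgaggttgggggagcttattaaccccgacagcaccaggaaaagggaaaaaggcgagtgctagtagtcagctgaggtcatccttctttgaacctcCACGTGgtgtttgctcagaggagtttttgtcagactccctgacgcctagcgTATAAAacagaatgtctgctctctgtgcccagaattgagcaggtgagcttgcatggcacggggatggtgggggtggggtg
The motifs, searched on both strands, were the TATA box TATAAA, the E-box CACGTG, an HNF4A site CAAAGTCCA, the HNF1 palindrome and the direct repeat 1 of nuclear receptors. The Apoa5 window holds 1 E-box and 1 TATA box, and the Apoa4 window holds none of the 5 motifs as searched. TATAAA occurs in 14.2% of all 33469 windows of this length CACGTG in 6.42% and CAAAGTCCA in 0.391%, the HNF1 palindrome in 0.003% and the direct repeat in 0.054%. Windows were at hand for 6 of the 10 members and not for Apoa1, Apoa2, Apob and Apoc3.

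The members are among the brightest probes of the array, where the choice of scale weighs most. Of the 216 tested features at least as bright as Apob, 50.9% fell and 9.26% rose, with a median change of -0.52; these include 9 of the members, of which 8 fell and 1 rose. Of the 717 features at least as bright as Apom, 31.9% fell and 26.2% rose, with a median of -0.07. The arrays also carry control probes for spike-in RNAs, of which 8 of 10 were well above background on all arrays. On the same scale, these 8 had furan minus control differences from -0.78 to -0.68, alike from the dimmest (control level -4.43) to the brightest (control level 8.54). The labels' protocols do not mention the addition of spike-in RNA.

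**Figure D2:**
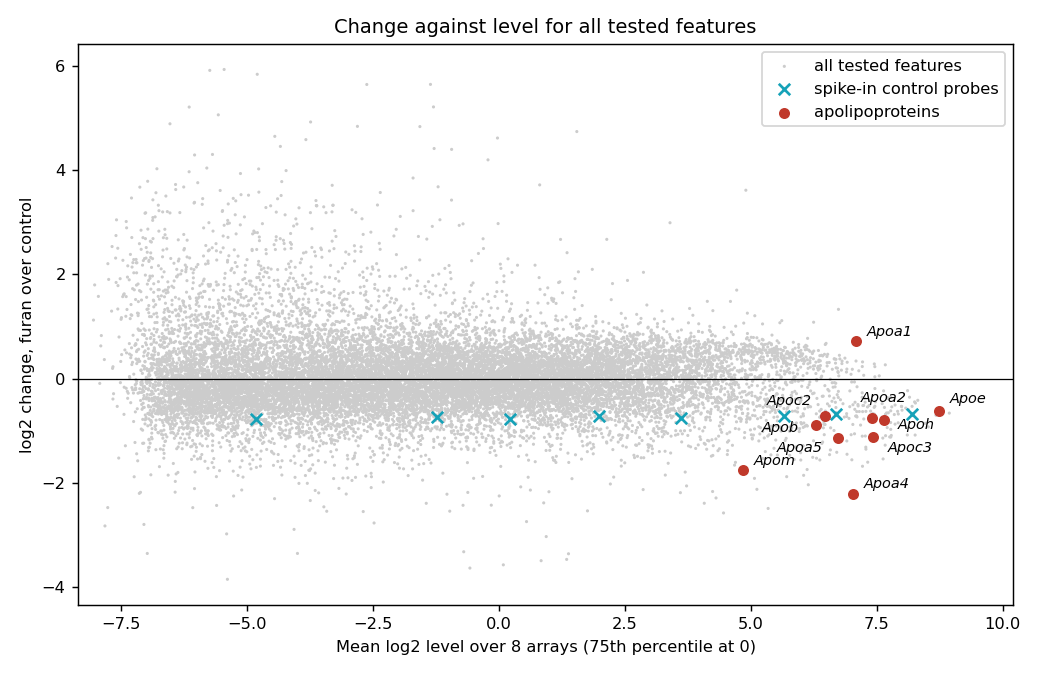
Log2 change after furan (vertical axis) against the mean log2 level over 8 arrays (horizontal axis) for all 17683 tested features in grey, the 10 apolipoproteins in red and the 8 spike-in control probes that were well above background as crosses. Apoa1 is the only member above 0; Apoe, Apoh, Apoa2 and Apoc2 lie near the height of the spike-in probes, and Apoa4 and Apom lie far below them.

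Measured against the spike-in probes, a scaling chosen after seeing the data, the median of all features was 0.70, and 56.0% of features were higher and 1.57% lower. On that scale Apoa1 rose by 1.45 (adjusted p = 0.000587), and Apoa4 and Apom were lower by -1.49 and -1.03. Apoa5 was lower by -0.40 (adjusted p = 0.0340). The other 6 were not called: Apoc3 had -0.40, Apob -0.15, Apoh -0.06, Apoa2 -0.02, Apoc2 0.01 and Apoe 0.11. All 10 members keep their distance from the median of all features, which moved by the same amount. The direction of Apoa1, Apoa4, Apom and Apoa5 was thus the same on the 75th percentile, quantile and spike-in scales, and each was called on all 3. With quantile normalization 18.9% of features were higher and 17.9% lower, and 1 member was higher and 6 lower; with normexp background correction 15.8% were higher and 34.0% lower, and 1 member was higher and 9 lower.

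**Figure D3:**
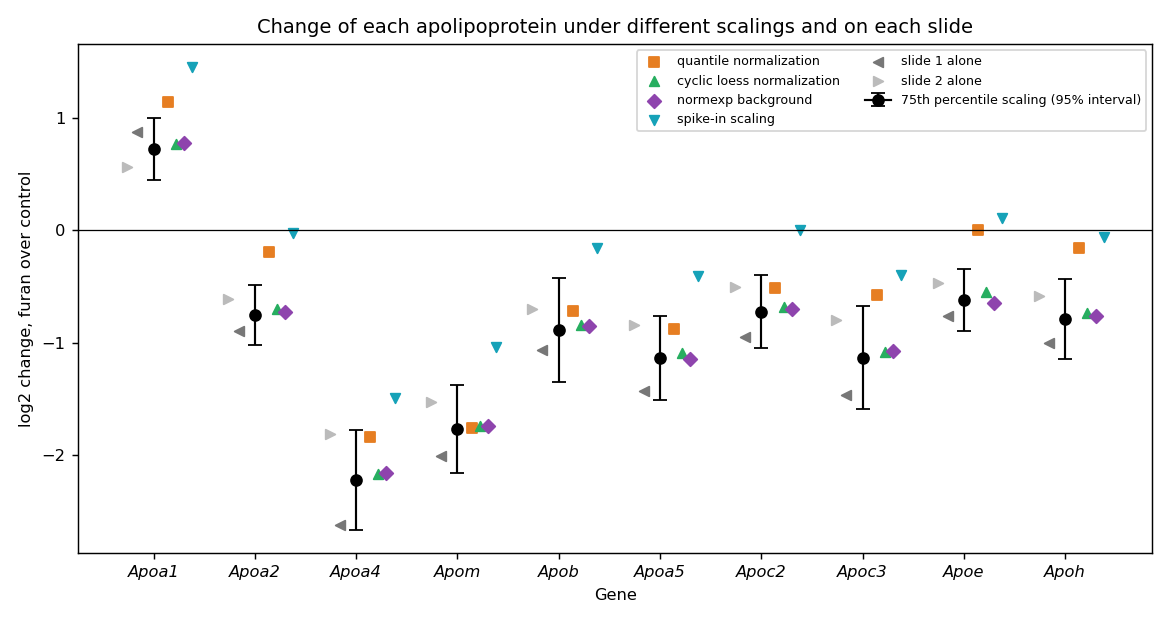
Log2 change after furan for each apolipoprotein with 75th percentile scaling (black, with the 95% interval from limma), with 4 other ways of scaling or background correction (coloured), and on each slide alone (grey triangles). Apoa1 is above 0 and Apoa4, Apom and Apoa5 are below 0 throughout, while quantile and spike-in scaling bring Apoa2, Apoe and Apoh near 0 and spike-in scaling also brings Apoc2 and Apob near it.

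Ranks, which use no scale, set the members in order of signal on each array (1 is the brightest of 17683). Apoa1 moved up, to between 26 and 53 on the furan arrays, against 130 to 215 on the control arrays. Apoa4 ranked between 236 and 395 on the furan arrays, against 32 to 42 on the control arrays, and Apom between 1038 and 1383, against 373 to 405. Apoc3 ranked between 66 and 148 after furan, against 41 to 49 in controls. Apoe had rank 2 or 3 on every array of both groups. The groups did not overlap in rank for 38.7% of all features and for 7 members, Apoa1, Apoa4, Apoa5, Apob, Apoc2, Apoc3 and Apom (exact two-sided permutation test on rank percentiles, p = 0.0286 for each, the smallest that 4 against 4 can give, 0.0408 after Benjamini-Hochberg over the 10 members). For Apoa2 (exact p = 0.0857) and Apoh (exact p = 0.343) the rank did not differ past the threshold. For Apoe (exact p = 1) the rank says little, since at the very top of the array a signal can change without passing another feature.

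**Figure D4:**
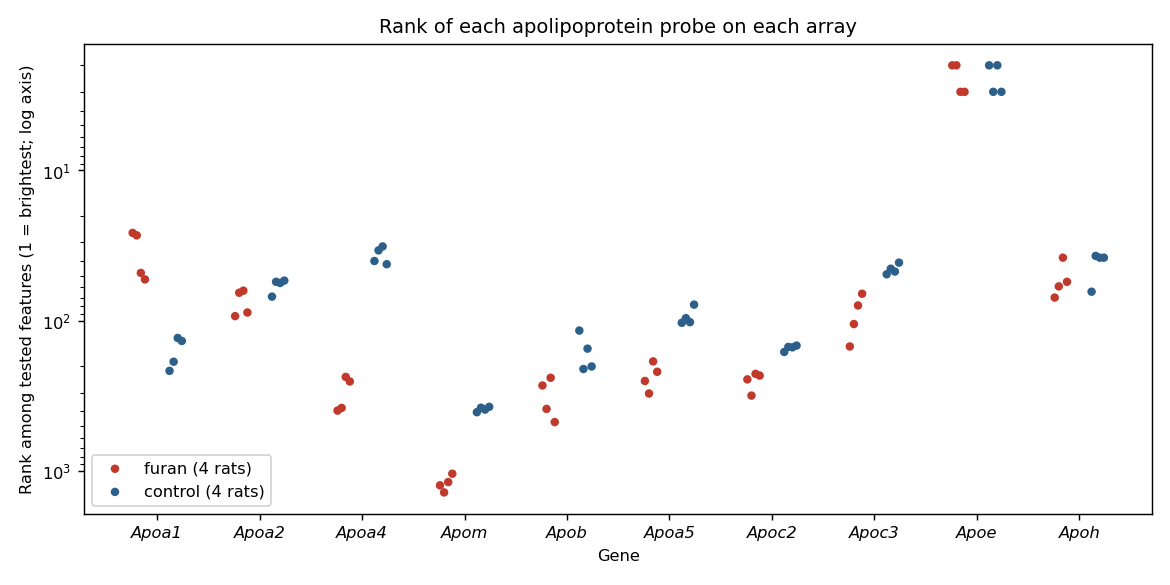
Rank of each apolipoprotein among the 17683 tested features on each array (log axis, 1 is the brightest, at the top), furan in red at the left and control in blue at the right of each pair. Points are single rats. Apoa1 moved to higher positions after furan and Apoa4 and Apom to lower ones, while Apoe had rank 2 or 3 on all 8 arrays.

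The members' estimated changes were larger in size on slide 1, but the test of the difference given below called none of them. The levels of furan 1 and 2 were both below those of furan 3 and 4 for 7 of the 10 members, as for 21.5% of all features. The change was larger in size on slide 1 for all 10 members, as for 60.1% of all features. For Apoa1 this came with lower levels in control 1 and 2 than in control 3 and 4, while the furan livers of the slides were alike. The change was -2.62 on slide 1 and -1.81 on slide 2 for Apoa4, -2.002 and -1.53 for Apom, -1.46 and -0.80 for Apoc3, -1.43 and -0.84 for Apoa5, and 0.88 and 0.57 for Apoa1. The other 5 had changes from -1.07 to -0.76 on slide 1 and from -0.70 to -0.47 on slide 2. A test of the difference between slides (limma interaction) gave adjusted p values from 0.776 to 0.893 for the members, an unadjusted p below 0.05 for Apoa4 (0.0110) and Apoa5 (0.0339), and no feature with an adjusted p below 0.05 out of 17683, against 1113 with an unadjusted p below 0.05. With the slide as a block, 1 member rose and 9 fell, against 17.2% and 16.6% of all features.

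Most other apolipoprotein genes tested fell on the 75th percentile scale. Of 9 on this list, 7 were tested, 5 fell and 0 rose in limma, while Clu and Apol11a were not called; at an unadjusted p below 0.05 the counts were 7 and 0. Among all features 16.9% fell and 17.3% rose in limma on that scale. The median change of the list was -0.91. With spike-in scaling 2 fell, Apon (-1.30) and Apoc4 (-0.41), and 0 rose, against 1.57% and 56.0% of all features. Apon fell most, to 1.202 ± 0.28 in furan livers, against 3.23 ± 0.07 in control livers (SD, n = 4 each). Its log2 change was -2.02 ± 0.15 (SE, adjusted p = 0.00022). Apoc4 fell by 1.14, with levels of 4.70 ± 0.31 in furan and 5.84 ± 0.15 in control livers (SD, n = 4 each). Apol9a fell by 0.91. Apod and Apol3 were not tested.

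Genes listed for lipoprotein assembly and secretion were split on the 75th percentile scale. Of 16 tested, 4 rose, 4 fell and 8 were not called, against 17.3% of all features higher and 16.9% lower. The median of the list was 0.02. With spike-in scaling 11 rose and 0 fell, against 56.0% and 1.57% of all features. Dgat2, which makes triglyceride, fell by 0.91 (adjusted p = 0.00294), Cideb, a lipid droplet protein needed to load VLDL with lipid, by 0.70 and Sar1a, a GTPase of transport vesicles, by 0.53, of which Cideb and Sar1a change sign with spike-in scaling. Tango2, listed here without an established part in lipoprotein assembly, rose by 0.93 (adjusted p = 0.00227). A1cf, a partner of the enzyme that edits Apob RNA, rose by 0.52 and Soat2, which makes cholesteryl ester, by 0.46. The count of genes that rose was 1 with replicate numbers as a block, with median scaling and without furan 3, furan 4, control 2, control 3 or control 4, and 2 without control 1. The count that fell was 2 without furan 2, control 3 or control 4.

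Of 11 plasma lipase, transfer and related genes tested, 5 fell, 0 rose and 6 were not called in limma (5 and 0 at an unadjusted p below 0.05), with a median of -0.30. With spike-in scaling 3 rose and 0 fell, against 56.0% and 1.57% of all features. Lipc, the hepatic lipase, fell by 1.13 (adjusted p = 0.00418), Lcat, which esterifies cholesterol on HDL, by 0.84 (adjusted p = 0.00651), and Pon1, an HDL-bound lactonase, by 0.71, though Pon1 was at 0.02 with spike-in scaling. Lpl, lipoprotein lipase itself, had a change of 0.03 (adjusted p = 0.975).

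Among 14 genes of lipoprotein receptors and uptake, 2 rose, 5 fell and 7 were not called, with a median of -0.22. The shares of all features were 17.3% higher and 16.9% lower. With spike-in scaling 7 rose and 0 fell, against 56.0% and 1.57% of all features, so that all calls of a fall were lost. The sorting receptor Sort1, which binds Apob in the secretory pathway, rose by 1.38 (adjusted p = 0.000293), with levels of -1.57 ± 0.16 in furan and -2.95 ± 0.10 in control livers (SD, n = 4 each). Vldlr rose by 1.38 as well, but was well above background on only 2 of the 4 control arrays and had -0.16 with normexp background correction. The endocytic receptor Lrp1 fell by 1.30, Sorl1 by 0.84 and Lrpap1, a chaperone of this receptor family, by 0.80. The count of falls was 3 without furan 2, furan 3, furan 4, control 1 or control 3.

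Of 6 cholesterol efflux genes tested, 1 rose, 2 fell and 3 were not called, with a median of -0.12. The shares of all features were 17.3% higher and 16.9% lower. With spike-in scaling 3 rose and 0 fell, against 56.0% and 1.57% of all features. Abcg5, a subunit of the transporter that moves sterols into bile, rose by 1.06 (adjusted p = 0.00643), while Abcb4, which exports phospholipid into bile, fell by 0.89 and Npc1, a lysosomal cholesterol transporter, by 0.45, although Npc1 was at 0.28 with spike-in scaling. Without furan 2, control 1 or control 3, 1 gene of this list fell.

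Of 28 transcription factors known to act on apolipoprotein genes, 9 fell, 1 rose and 18 were not called, with a median of -0.36. The shares of all features were 16.9% lower and 17.3% higher. The nuclear receptor Hnf4a, a central activator of apolipoprotein genes in hepatocytes, fell by 0.98 (adjusted p = 0.00740), with levels of -2.04 ± 0.41 in furan and -1.07 ± 0.14 in control livers (SD, n = 4 each). Pparg fell by 1.14 (adjusted p = 0.00217) and Mlxipl, a glucose-responsive factor, by 0.80. The estrogen receptor Esr1 rose by 0.69, but had -0.21 with normexp background correction. With spike-in scaling 9 of these genes were higher and 0 lower, against 56.0% and 1.57% of all features. The count of rises was 2 without furan 4.

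**Figure D5:**
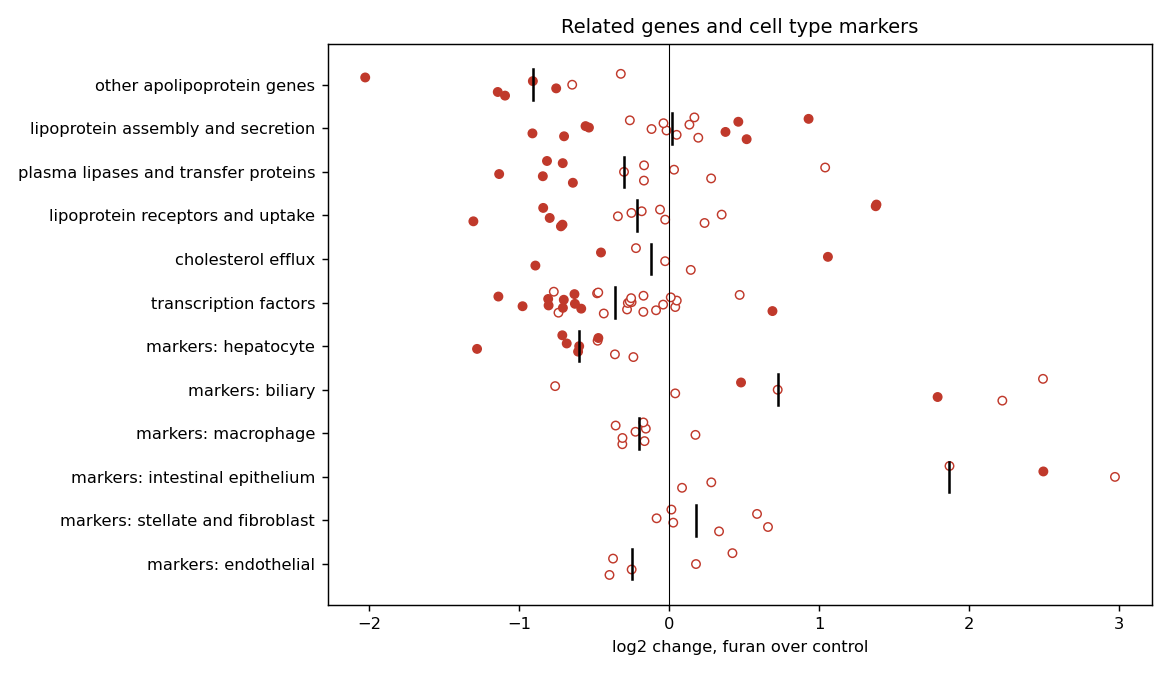
Log2 change after furan (horizontal axis, 75th percentile scaling) of the tested genes of each list, 1 point per gene, with filled points for genes past an adjusted p of 0.05 in limma and a black line at the list's median. The other apolipoprotein genes all lie below 0, whereas genes of lipoprotein assembly lie on both sides of 0; with spike-in scaling all points shift to the right by 0.73.

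Genes with profiles most like the 2 extreme members were sought among 13030 named genes well above background on all arrays, by the root mean square difference of centred levels over 8 arrays. The centred levels hold the difference between the groups, so a change of like size follows from this choice. For Apoa1 they were Nop2 (0.080), Calhm3 (0.081) and Morc4 (0.086), with changes of 0.69, 0.71 and 0.71. Calhm3 and Morc4 were dim, at -5.66 and -4.68 in furan livers and -6.37 and -5.39 in control livers. For Apoa4 they were Apon (0.165), Nrtn (0.171) and Fabp7 (0.174), with changes of -2.02, -2.43 and -2.19.

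Most hepatocyte markers, the genes that define the main source of apolipoproteins, were lower on the 75th percentile scale. Of 9 tested, 6 fell and 0 rose in limma (6 and 0 at an unadjusted p below 0.05), while 1 fell and 1 rose with quantile normalization and with spike-in scaling. On the 75th percentile scale 16.9% of all features fell and 17.3% rose. All these markers but Tat and Cps1 were at least as bright as Apob, and 50.9% of the 216 such features fell. Of all features, 17.9% fell and 18.9% rose with quantile normalization, and 1.57% fell and 56.0% rose with spike-in scaling. The markers' summed signal relative to the 75th percentile was 1291 to 1622 on the furan arrays and 2036 to 2433 on the control arrays. Fga (fibrinogen alpha chain) fell by 1.28, while Fgb (by 0.60) and Serpina1 (by 0.68) were at 0.02 and 0.01 with quantile normalization and at 0.13 and 0.05 with spike-in scaling. Alb had -0.36 and was not called (adjusted p = 0.133).

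Of 8 macrophage markers, which matter for Apoe, 0 were called in either direction in limma (0 at an unadjusted p below 0.05), Adgre1 having the smallest p with a change of -0.31, and their sum was 20.04 to 22.8 on the furan arrays and 20.6 to 32.4 on the control arrays. Of 5 tested intestinal markers, 1 rose, Fabp2 by 2.50, with sums of 11.3 to 14.1 on the furan arrays and 7.62 to 12.9 on the control arrays, and 3 rose without control 2. Most of the intestinal sum came from Cdh17, the brightest of these markers, which was not called in limma (0.09, adjusted p = 0.794). Its mean level was 2.98 in furan livers and 2.89 in control livers. The sum therefore says little about intestinal cells or about the other intestinal markers. Of 7 biliary markers 2 rose, Epcam by 1.79 and Sox9 by 0.48, and 1 without control 1. With all arrays, 17.3% of all features rose and 16.9% fell. The biliary sum was 7.96, 2.93, 1.44 and 1.21 on furan arrays 1 to 4 and 0.618, 5.15, 0.989 and 0.722 on control arrays 1 to 4. Of 6 stellate cell markers 0 were called (0 at an unadjusted p below 0.05), Lrat having 0.59. Of 5 endothelial markers 0 were called (1 lower at an unadjusted p below 0.05), Cdh5 having -0.40, and 1 fell without furan 4 and 3 without control 1. Stellate sums were 4.94 to 15.2 on the furan arrays and 3.52 to 9.03 on the control arrays, and endothelial sums were 11.3 to 14.4 and 5.83 to 22.1. The part of these markers in the members' changes was not tested. Without control 2 and furan 1, the arrays with the highest biliary sums, 1 member rose and 9 fell, against 14.3% and 13.1% of all features.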

How the data were processed

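Total RNA of 8 livers was labelled with Cy3 and hybridised to 1-colour Agilent rat arrays, per the labels' protocols. The authors extracted spot signals with Agilent Feature Extraction 10.7, per the submitters' processing notes, and the deposited files give background-subtracted intensity values that are not scaled between arrays, per the file headers. The authors' deposited series table holds the same intensity values scaled to a 75th percentile near 1000 on each array.

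Spots marked as outliers were left out, log2 signals relative to the array's 75th percentile were averaged per probe, and 170 of 30367 probes without a usable spot on some array were dropped. Probes well above background (at least 50% of spots) on all 4 arrays of a group were tested, with the brightest probe per gene. Names came from the RefSeq table by transcript, symbol or synonym, otherwise from the array annotation. The furan and control groups were compared with limma 3.58.1 (lmFit and eBayes, R 4.3.3), two-sided, with Benjamini-Hochberg adjustment over 17683 features. The fit was tested on simulated data. Named genes are the 10 members and, per list, up to 3 called genes per direction with the smallest p, or else the gene of smallest p. Other genes (Clu, Apol11a, Lpl, Alb, Apoc1, Cdh17) were named after their values were seen. Members and lists were chosen with earlier results of these data known. Ranks used scipy 1.17.1. The alternatives tried were quantile, cyclic loess, median and spike-in scaling, scaling on the 1000 brightest features, normexp (offset 50), the series table, other filters, probe averages, blocks, a variance trend and leaving out arrays. Spike-in scaling and the 1000 brightest features were chosen after seeing the data.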

Additional observations from a re-analysis of the deposited data

Results flagged for a closer look

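In 4 of 86 groups of 4 values checked, among the named genes, 1 array lay far from the other 3 of its group; none of the 4 was a group of an apolipoprotein member, and chance flags about 1 in 20 groups. Cideb was at 2.51 on control 1, against 2.01 to 2.09 on the other controls. Soat2 was at -0.35 on control 1, against 0.06 to 0.12. Pon1 was at 5.23 on control 3, against 5.42 to 5.46. Fga was at 6.73 on furan 2, against 7.08 to 7.15 on the other furan arrays.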

How the results depend on the processing

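Over the scalings, filters, blocks and left-out arrays tried, Apoa4 (changes from -2.62 to -1.49), Apom (-2.002 to -1.03) and Apoa5 (-1.43 to -0.40) kept their direction and their call. Apoa1 (0.57 to 1.45) kept its direction throughout, and its call except on slide 1 alone and on slide 2 alone. Leaving out each array in turn ended no call of a member, 1 rising and 9 falling each time, and gave 2241 to 3017 features higher and 1936 (without furan 2) to 3011 lower, against 3057 and 2984. Quantile normalization ended the calls of Apoa2 (-0.20), Apoe (0) and Apoh (-0.15), as did ranks (differences of -0.106, 0 and -0.0636 percentiles). The 0 of Apoe in both is fixed by its rank of 2 or 3 on every array, so it says little about whether Apoe changed. Quantile normalization also reversed Fgb (0.0216) and Serpina1 (0.0121) and left 0 transcription factors higher. Spike-in scaling ended the calls of Apoa2 (-0.0240), Apob (-0.15), Apoc3 (-0.40) and Apoh (-0.0615). It reversed Apoc2 (0.00568), Apoe (0.11), Adgre1 (0.42), Cdh5 (0.33), Cideb (0.0304), Fgb (0.13), Npc1 (0.28), Pon1 (0.0214), Sar1a (0.20) and Serpina1 (0.0480). By its construction spike-in scaling adds 0.73 to every change. It gave 9908 features higher and 277 lower, 3 members lower, and per list 2 other apolipoproteins lower, 11 assembly genes higher and 0 lower, 3 lipase genes higher and 0 lower, 7 receptor genes higher and 0 lower, 3 efflux genes higher and 0 lower, and 9 transcription factors higher and 0 lower. Normexp called 6010 features lower, 1 receptor gene higher and 0 transcription factors higher, and reversed Esr1 (-0.21) and Vldlr (-0.16).

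On single slides, with 2 arrays a group, fewer calls were made. Slide 1 gave 322 features higher and 219 lower, 0 members higher and 3 lower, 1 other apolipoprotein and 1 lipase gene lower, and 0 in either direction for the assembly, receptor, efflux and transcription factor lists. Slide 2 gave 845 higher and 613 lower, 0 members higher and 3 lower, 2 other apolipoproteins, 1 lipase gene and 1 receptor gene lower, 1 assembly gene higher and 0 lower, 0 efflux genes lower and 0 transcription factors in either direction. The 7 members not called on slide 1 were Apoa1 (0.88), Apoa2 (-0.89), Apob (-1.07), Apoc2 (-0.95), Apoc3 (-1.46), Apoe (-0.76) and Apoh (-1.004), and on slide 2 they were the same genes (0.57, -0.61, -0.70, -0.50, -0.80, -0.47 and -0.58).

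With the replicate block, 2383 features were higher and 2176 lower, the members had 1 and 9 calls, 1 assembly gene rose and 3 receptor genes fell. Same-numbered furan and control arrays deviated together with correlations over genes of -0.30, 0.12, 0.28 and 0.04, and not every array correlated best with its own number, so the labels' numbers were not used to pair animals. Smaller lists moved elsewhere: 2 transcription factors rose with cyclic loess, as with only probes well above background throughout, where 1 receptor gene rose; 1 assembly gene rose with median scaling and with no filter, where 3 receptor and 1 efflux gene fell; 1 lipase gene rose with the slide as a block; and without control 2 and furan 1, 2 assembly and 1 receptor gene rose and 1 efflux gene fell. Leaving out each array gave 1 to 3 assembly genes higher and 2 to 4 lower, 3 to 4 receptor genes lower, 1 to 2 efflux genes lower and 1 to 2 transcription factors higher. The causes were not tested. With normexp the median of all features was -0.18 and with no filter -0.12, against -0.03. Only 4 arrays a group limit the precision.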
